A study of Mus musculus with 10 samples.

Results

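Glycolysis and the pentose phosphate pathway were followed here through 32 genes for glucose transporters, enzymes and kinases that act on them, in microglia taken straight from adult brain or after culture. The genes were listed by their known roles in these pathways. All 32 appeared among the 18281 gene symbols of the deposited tables and all 32 passed the filter on low counts, which left 12155 genes to test. The study prepared single cell RNA-seq libraries, with molecular identifiers (UMIs) that count each captured transcript once, from C57BL/6 mice. The 5 groups held 2 libraries each and consisted of microglia isolated directly from adult mice (adult), microglia from brain slices of neonatal pups cultured for 1 day, 1 week or 3 weeks (slice 1 day, slice 1 week, slice 3 weeks), and the floating microglia collected from the medium of mixed glial cultures of neonatal cortex that the labels give as 3 weeks old (*in vitro*). Microglia of all groups were sorted as live cells with high CD11b and intermediate CD45, and slices were pooled where needed to reach the number of cells loaded. The labels give no genetic change for any of these libraries. Slice medium contained added glucose, with human PDGF given at medium changes, and mixed glial medium was a DMEM that contained pyruvate, so that age of the donor animals, medium and culture cannot be told apart in any comparison with adult cells.

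Cells bring in glucose through the GLUT transporters, trap it as glucose-6-phosphate with a hexokinase, split it in upper glycolysis and recover ATP from it in lower glycolysis. The resulting pyruvate is turned to lactate by lactate dehydrogenase or passed into mitochondria through pyruvate dehydrogenase, while the pentose phosphate pathway draws off glucose-6-phosphate to make NADPH and ribose. Macrophages, including microglia, are known for raising glycolysis when activated, and many glycolytic genes are textbook targets of the hypoxia-inducible factor HIF-1.

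A total of 19059 cells were kept of 19637 barcodes, between 61 (slice 1 week replicate 2) and 3799 (adult replicate 1) per library. The paper also removed outlier cells and counted fewer microglia in slice 1 week, where 148 cells of replicate 1 were kept here. The cells kept are thus a wider set than the microglia it counted. Summed UMIs ran from 385373 to 39689540 per library, and adult replicate 2 had the lowest median per cell, 1858, and *in vitro* replicate 2 the highest, 13966. Both slice 1 week libraries were small, so a low gene there rested on few counts. Of 18840 distinct barcodes among the kept cells, 218 occurred in more than 1 library, at most 21 for any pair of libraries. All 10 microglia markers had counts in every library, but their summed level was 44991 and 45585 counts per 1000000 UMIs (CPM) in adult, 3387 to 11719 in slice 1 day, slice 1 week and *in vitro*, and 16501 and 20159 in slice 3 weeks. Neutrophil markers summed to 7944 and 23210 CPM in slice 1 day and to 41461 and 1033 CPM in slice 1 week, against 23.0 to 212 CPM in the other 6 libraries. The 8 monocyte markers summed to 7.43 and 5.44 CPM in adult, 507 and 739 in slice 1 day and 1162 and 345 in slice 1 week. They summed to 233 and 150 CPM in slice 3 weeks and 37.6 and 89.0 *in vitro*. In slice 1 week replicate 2 only *Fn1* of them had counts. The part of such cells in the slice values was not tested. The 5 markers of border macrophages summed to 10.7 and 5.74 CPM in adult, 45.3 to 314 CPM in slices and 2263 and 2123 CPM *in vitro*, and their part in the *in vitro* values was not tested. Levels below are counts summed over the cells of a library and scaled by TMM, and in such sums fewer cells of a type and less RNA per cell cannot be told apart. Reads came from the 3' end of transcripts, so that forms of an enzyme are set side by side as UMIs and not per length. The paper calls the 2 samples of each group independent. The labels do not say that libraries of a group came from separate animals or cultures, so that p-values measure only the spread between these libraries, which may be technical.

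The 32 genes together took a larger part of the transcripts in every cultured library than in either adult library. They made up 0.426% and 0.422% of UMIs in adult, 1.66% in both slice 1 day libraries, 1.10% and 0.874% in slice 1 week, 1.08% and 1.13% in slice 3 weeks, and 0.624% and 0.694% *in vitro*. The groups did not overlap with adult, and *in vitro* lay between adult and every slice library. Relative to the adult mean of 0.424% ± 0.00281 (SD, n = 2), the group means were 3.91, 2.32, 2.61 and 1.55 times as high for slice 1 day, slice 1 week, slice 3 weeks and *in vitro*. With 2 libraries against 2, the smallest p-value an exact two-sided permutation test can give is 0.333, and none is given for these shares. Counted per cell, the 32 genes had 13.9 and 8.14 UMIs in adult and between 55.2 and 156 in the 8 cultured libraries, a difference that also contains the higher total of UMIs per cultured cell.

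**Figure D1:**
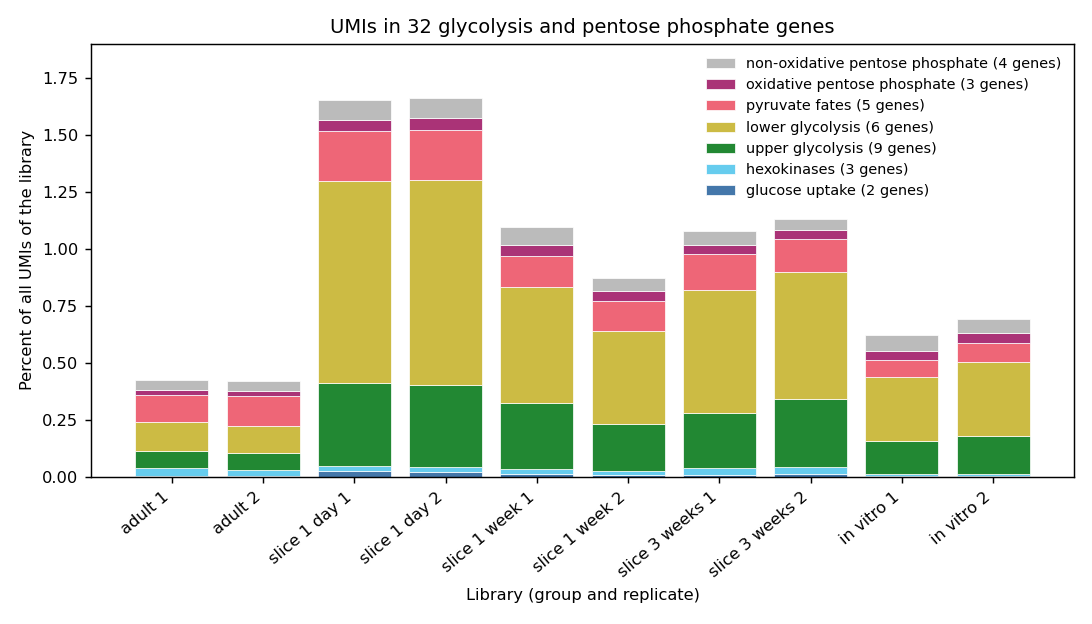
Percentage of each library's UMIs taken by the 32 genes, stacked by role, with libraries along the x axis and the percentage on the y axis. The 2 adult libraries reached 0.426% and 0.422%, the slice 1 day libraries 1.66% each, and the *in vitro* libraries 0.624% and 0.694%, with lower glycolysis the largest block in every cultured library.

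Glucose uptake and the glycolytic steps after glucose phosphorylation had the largest ratios to adult in slice 1 day. The 2 glucose transporters went from 0.00440% and 0.00403% of UMIs in adult to 0.0244% and 0.0230% in slice 1 day and 0.00127% and 0.00140% *in vitro*. The 6 genes of lower glycolysis went from 0.127% and 0.116% of UMIs in adult to 0.889% and 0.900% in slice 1 day, 0.511% and 0.408% in slice 1 week, 0.542% and 0.554% in slice 3 weeks and 0.280% and 0.326% *in vitro*. The 9 genes of upper glycolysis went from 0.0752% and 0.0784% in adult to 0.363% and 0.357% in slice 1 day and to 0.146% and 0.167% *in vitro*. The 3 hexokinases, by contrast, took 0.0327% and 0.0237% in adult and 0.0102% to 0.0312% in the cultured libraries, and of the 4 cultured groups slice 3 weeks overlapped with adult. The 5 genes of pyruvate handling took 0.121% and 0.134% in adult, 0.218% and 0.221% in slice 1 day and 0.0739% and 0.0839% *in vitro*. The oxidative pentose phosphate genes went from 0.0233% and 0.0219% in adult to between 0.0364% and 0.0547% in culture, and the non-oxidative ones from 0.0437% and 0.0440% to between 0.0514% and 0.0873%.

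Each gene was then tested with edgeR's quasi-likelihood test in 1 fit of all 10 libraries, and was called changed when its Benjamini-Hochberg adjusted p over all 12155 genes was under 0.05 and its fold over 1.5. In slice 1 day against adult, 22 of the 32 genes were called higher and 3 lower, where 24.9% of all genes tested were higher and 25.4% lower. In slice 1 week against adult, 19 were higher and 2 lower, beside 15% and 13.6% of all genes. In slice 3 weeks against adult, 19 were higher and 2 lower, beside 18% and 17.5%. In *in vitro* against adult, 18 were higher and 8 lower, beside 22.4% and 28.5%. Scaling by library size alone, which moved the median of all genes by −0.30, gave 15 higher and 9 lower. With that scaling 2016 of the 6740 genes called were higher, whereas TMM gave 2720 higher and 3463 lower. Taken as a median over the members, the change was 1.36 in slice 1 day, 1.15 in slice 1 week, 0.86 in slice 3 weeks and 0.83 *in vitro* on the log2 scale, while the median over all genes tested lay between −0.11 and −0.03. Counted as UMIs per cell instead, without scaling to the total, 30 of the 32 genes in slice 1 day, 28 in slice 1 week, 30 in slice 3 weeks and 29 *in vitro* had both libraries above both adult ones, against 25, 21, 26 and 20 by CPM. Shares of all genes above adult in these ways were not counted. Group means were 6376 to 14424 UMIs per cultured cell against 2594 in adult, so the counts per cell cannot be read as a trait of the 32 genes. *Ldhb* was lower per cell as well in slice 1 day, at 1.22 and 1.05 UMIs, and *in vitro*, at 1.32 and 1.17, against 2.77 and 1.86 in adult. In slice 1 week, at 2.09 and 2.43, and slice 3 weeks, at 2.94 and 2.28, *Ldhb* overlapped with adult per cell. These 4 comparisons share the same adult libraries and are not independent of each other. Called higher in all 4 were *Gpi1*, *Pfkp*, *Aldoa*, *Tpi1*, *Gapdh*, *Pgam1*, *Eno1*, *Pkm*, *Ldha*, *Pdha1*, *Pgls* and *Tkt*, and called lower in all 4 were *Ldhb* and *Pfkfb4*.

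**Figure D2:**
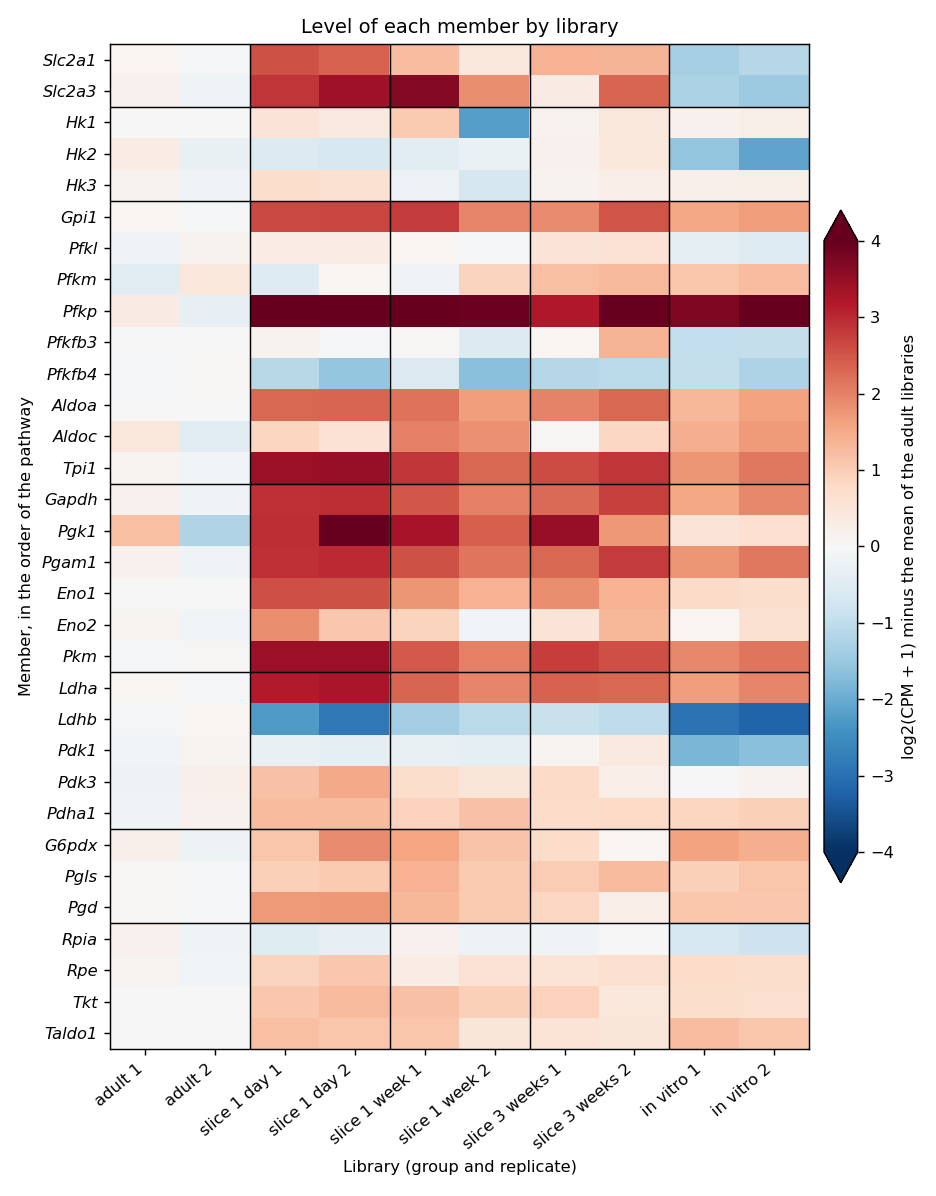
Level of each of the 32 genes in each library as log2(CPM + 1) minus the mean of both adult libraries, with genes in rows ordered by role and libraries in columns. Most rows of upper and lower glycolysis were above adult in all 8 cultured libraries, whereas *Ldhb* and *Pfkfb4* were below adult in all 8.

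As CPM, the GLUT transporters separated slices from *in vitro* cells. *Slc2a1*, which encodes the basal glucose transporter GLUT1, had 35.9 and 32.3 CPM in adult, 202 and 179.6 in slice 1 day, 82.0 and 46.1 in slice 1 week, 91.6 and 88.3 in slice 3 weeks, and 13.01 and 14.99 *in vitro*. Every slice library was above adult and both *in vitro* libraries were below it, whereas per cell *Slc2a1* had 0.168 and 0.199 UMIs *in vitro* and 0.129 and 0.0712 in adult. The log2 fold change against adult was 2.48 ± 0.19 (SE) in slice 1 day (edgeR adjusted p = 5.1e-06), 1.40 ± 0.19 in slice 3 weeks (edgeR adjusted p = 0.00029) and −1.29 ± 0.19 *in vitro* (edgeR adjusted p = 0.00023). The slice 1 week call, 0.99 ± 0.22 (edgeR adjusted p = 0.0071), depended on replicate 1, without which the change was 0.46 (edgeR adjusted p = 0.48). *Slc2a3*, the high-affinity transporter GLUT3, was far less abundant, at 4.03 and 2.96 CPM in adult, 31.5 and 46.1 in slice 1 day, 56.3 and 15.4 in slice 1 week, 4.66 and 21.4 in slice 3 weeks, and 0.867 and 0.617 *in vitro*. Its rise in slice 1 day was 3.45 ± 0.62 (edgeR adjusted p = 0.00092), while the replicates of slice 1 week and of slice 3 weeks differed by more than 3-fold. The *Slc2a3* call in slice 3 weeks, 1.94 ± 0.61 (edgeR adjusted p = 0.028), was lost without slice 3 weeks replicate 2, at 0.43 (edgeR adjusted p = 0.56), and the one in slice 1 week, 3.53 ± 0.74 (edgeR adjusted p = 0.0052), without slice 1 week replicate 1, at 2.13 (edgeR adjusted p = 0.44). Its *in vitro* fall, −2.26 ± 0.72 (edgeR adjusted p = 0.021), was lost without adult replicate 1, at −1.90, *in vitro* replicate 1, at −2.39, or *in vitro* replicate 2, at −1.90. Per cell, *Slc2a3* had 0.0112 and 0.00820 UMIs *in vitro*, which overlapped with 0.0145 and 0.00652 in adult.

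Of the 3 hexokinases, *Hk3* alone was called higher than adult, in 1 of the 4 comparisons. *Hk2*, the inducible and mitochondria-associated form, was the main hexokinase transcript in adult at 231 and 150.2 CPM, and had 126 and 119 in slice 1 day, 136 and 156 in slice 1 week, 209 and 248 in slice 3 weeks, and 62.1 and 42.1 *in vitro*. The *in vitro* libraries were below all others, with a log2 fold change of −1.87 ± 0.24 against adult (edgeR adjusted p = 7.7e-05). The smaller fall in slice 1 day, −0.64 ± 0.23 (edgeR adjusted p = 0.037), was −0.25 without adult replicate 1 and was also lost without any 1 of the slice 1 day or slice 1 week libraries. Per cell, *Hk2* had 0.801 and 0.559 UMIs *in vitro*, which overlapped with 0.830 and 0.331 in adult, and 0.929 and 1.14 in slice 1 day. *Hk3*, the form of myeloid cells, ranged from 28.1 to 74.4 CPM and its slice 1 day change was 0.66 ± 0.15 (edgeR adjusted p = 0.0033), a fold close to the threshold that fell under it without adult replicate 2. *Hk1*, the housekeeping form, ranged from 2.56 to 32.6 CPM, both in slice 1 week, and was called in no comparison. *Hk2* accounted for 77.9% and 72.5% of hexokinase UMIs in adult and for 47.1% and 37.0% *in vitro*, where *Hk3* reached 39.6% and 47.1%.

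In upper glycolysis, the enzymes that catalyse the isomerase, aldolase and triose phosphate steps rose in every culture. *Gpi1*, glucose-6-phosphate isomerase, had 107 and 97.4 CPM in adult, 644 and 661 in slice 1 day, 715 and 402 in slice 1 week, 385 and 583 in slice 3 weeks, and 302 and 326 *in vitro*. *Aldoa*, the muscle-type aldolase that supplied at least 99.5% of aldolase UMIs in every library, had 346 and 354 CPM in adult, 1739 and 1745 in slice 1 day, 1588 and 1108 in slice 1 week, 1379 and 1721 in slice 3 weeks, and 883 and 1059.6 *in vitro*. *Tpi1*, triose phosphate isomerase, had 89.4 and 75.7 CPM in adult, 908 and 924 in slice 1 day, 609.7 and 412 in slice 1 week, 507 and 603 in slice 3 weeks, and 285 and 359 *in vitro*. For all 3 genes the lowest cultured library was above the highest adult library by more than 2-fold. The log2 fold changes against adult were 2.67 ± 0.27, 2.31 ± 0.20 and 3.47 ± 0.22 in slice 1 day for *Gpi1*, *Aldoa* and *Tpi1* in that order, and 1.62 ± 0.26, 1.47 ± 0.20 and 1.96 ± 0.21 *in vitro*, with the largest edgeR adjusted p among these 6 at 0.00042.

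The makeup of phosphofructokinase, the committed step of glycolysis, changed in culture. *Pfkl*, the liver-type subunit, lay between 58.1 and 124 CPM in every library and was called in no comparison with adult. *Pfkp*, the platelet-type subunit, had 8 UMIs in adult replicate 1 and none in adult replicate 2, equal to 0.586 and 0 CPM. It had 45.6 and 43.9 CPM in slice 1 day, 54.3 and 17.9 in slice 1 week, 10.6 and 21.6 in slice 3 weeks, and 15.8 and 19.9 *in vitro*. Computed from the summed counts, *Pfkp* was 109 times as high as adult in slice 1 day (95% counting interval 55.0 to 254), 101 times in slice 1 week (48.4 to 245), 43.4 times in slice 3 weeks (21.9 to 101) and 39.1 times *in vitro* (19.8 to 90.8), with intervals that cover counting error only. Its part of all phosphofructokinase UMIs rose from 0.8% and 0% in adult to 30.6% and 29.3% in slice 1 day and 18.7% and 23.5% *in vitro*, and in slice 1 week, where 1 library had 40 such UMIs in all, it was 37.7% and 17.5%. *Pfkm*, the muscle-type subunit, stayed under 7 CPM everywhere and was called higher in slice 3 weeks (1.55 ± 0.41, edgeR adjusted p = 0.012) and *in vitro* (1.47 ± 0.40, edgeR adjusted p = 0.0093), both lost without adult replicate 1 (edgeR adjusted p = 0.098 and 0.077).

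The bifunctional enzymes that set the phosphofructokinase activator fructose-2,6-bisphosphate behaved differently from the enzymes of the pathway. *Pfkfb4* fell from 41.8 and 44.8 CPM in adult to between 12.8 and 28.7 CPM in the 8 cultured libraries, although per cell it had 0.283 and 0.238 UMIs *in vitro* against 0.150 and 0.0987 in adult, and slice values that overlapped with adult. The *Pfkfb4* log2 fold change was −1.40 ± 0.23 in slice 1 day (edgeR adjusted p = 0.0005), −1.13 ± 0.22 in slice 3 weeks (edgeR adjusted p = 0.0021) and −1.12 ± 0.21 *in vitro* (edgeR adjusted p = 0.0011), while the slice 1 week call (−0.89 ± 0.30, edgeR adjusted p = 0.046) was lost without either adult library, slice 1 day replicate 2, slice 1 week replicate 2 or slice 3 weeks replicate 1, with values from −0.63 to −0.90, and with RLE scaling or DESeq2. *Pfkfb3*, the form with the highest kinase activity, had 19.3 and 18.7 CPM in adult, 20.2 and 50.4 in slice 3 weeks and 9.19 and 9.37 *in vitro*. Its rise in slice 3 weeks (0.92 ± 0.33, edgeR adjusted p = 0.047) rested on slice 3 weeks replicate 2, without which it was 0.14 (edgeR adjusted p = 0.59). The *Pfkfb3* fall *in vitro* (−1.03 ± 0.33, edgeR adjusted p = 0.022) was lost without any 1 of the adult and *in vitro* libraries, with values from −1.06 to −0.90. Per cell, *Pfkfb3* had 0.118 and 0.125 UMIs *in vitro* against 0.0695 and 0.0411 in adult. *Aldoc*, the brain-type aldolase, was under 6 CPM in every library. The *Aldoc* call in slice 1 week (2.67 ± 0.90, edgeR adjusted p = 0.046) was lost without any 1 of 7 libraries, among them adult replicate 2, at 2.09. Its *in vitro* rise, 2.22 ± 0.56 (edgeR adjusted p = 0.0062), was not called with thinned cells. Both changes rested on 18 and 2 *Aldoc* UMIs in the adult libraries.

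All 6 lower glycolysis genes were called higher in slice 1 day and in slice 3 weeks, 5 in slice 1 week and 4 *in vitro*, beside 24.9%, 18%, 15% and 22.4% of all genes tested. Their median log2 fold changes were 3.15 in slice 1 day, 2.31 in slice 1 week, 2.54 in slice 3 weeks and 1.85 *in vitro*. *Gapdh*, the dehydrogenase often used as a reference gene, had 442 and 347 CPM in adult, 2987 and 3006 in slice 1 day, 2183 and 1597 in slice 1 week, 1871 and 2592 in slice 3 weeks, and 1156 and 1484 *in vitro*. *Pkm*, pyruvate kinase, had 255 and 276 CPM in adult, 2836 and 2890.2 in slice 1 day, 1471 and 1085 in slice 1 week, 1808 and 1580.4 in slice 3 weeks, and 1005 and 1173 *in vitro*. *Gapdh* and *Pkm* were thus at their highest in slice 1 day, and no cultured library overlapped with adult. The log2 fold change of *Pkm* was 3.43 ± 0.19 in slice 1 day (edgeR adjusted p = 9.6e-07) and 2.04 ± 0.18 *in vitro* (edgeR adjusted p = 6.2e-06), and that of *Gapdh* was 2.93 ± 0.24 (edgeR adjusted p = 6e-06) and 1.74 ± 0.23 (edgeR adjusted p = 9.2e-05).

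*Pgam1*, phosphoglycerate mutase, followed the same order, with 123 and 97.1 CPM in adult, 832 and 876 in slice 1 day, 640.3 and 481 in slice 1 week, 545 and 768 in slice 3 weeks, and 375 and 473 *in vitro*. *Eno1*, the ubiquitous enolase, whose lowest share of enolase UMIs in any library rounded to 99.8%, had 289 and 294 CPM in adult, 1734 and 1718 in slice 1 day, 989 and 768 in slice 1 week, 1058 and 763 in slice 3 weeks, and 492 and 478 *in vitro*. *Eno1* *in vitro* differed from adult by 0.73 ± 0.18 (edgeR adjusted p = 0.0057), a call lost with library size alone, against 2.57 ± 0.19 in slice 1 day (edgeR adjusted p = 4e-06). *Pgk1*, phosphoglycerate kinase, differed widely between libraries of a group, at 40.1 and 6.83 CPM in adult, 137 and 352 in slice 1 day, 175 and 92.1 in slice 1 week, 202 and 58.4 in slice 3 weeks, and 24.6 and 27.6 *in vitro*. Adult replicate 2 had the lowest *Pgk1* value and the *in vitro* libraries lay between both adult ones, giving a log2 fold change of 0.12 ± 0.73 (edgeR adjusted p = 0.91), whereas slice 1 day was above adult by 3.35 ± 0.78 (edgeR adjusted p = 0.0044). Without adult replicate 2 the *Pgk1* change was 1.69 in slice 3 weeks (edgeR adjusted p = 0.12, against 2.43 ± 0.76 and edgeR adjusted p = 0.027 with it) and 1.78 in slice 1 week (edgeR adjusted p = 0.13, against 2.53 ± 0.81 and edgeR adjusted p = 0.037), and both calls were also lost without replicate 1 of the slice group, at 1.27 and 1.96. *Eno2*, the neuronal enolase, had 2 UMIs in adult over both libraries and 23 in slice 1 day, which is 16.7 times as high after scaling to library size (95% counting interval 4.13 to 146). Its calls in slice 1 day and slice 3 weeks were lost without adult replicate 2, with edgeR adjusted p = 0.059 and 0.14, and also without slice 1 day replicate 1 (edgeR adjusted p = 0.057) or, for slice 3 weeks, without adult replicate 1 (edgeR adjusted p = 0.089) or slice 3 weeks replicate 2 (edgeR adjusted p = 0.3). Reads of *Gapdh*, *Pgk1*, *Ldha*, *Pkm* and *Eno1* can also match near-identical pseudogenes or copies, so that their levels carry that uncertainty.

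**Figure D3:**
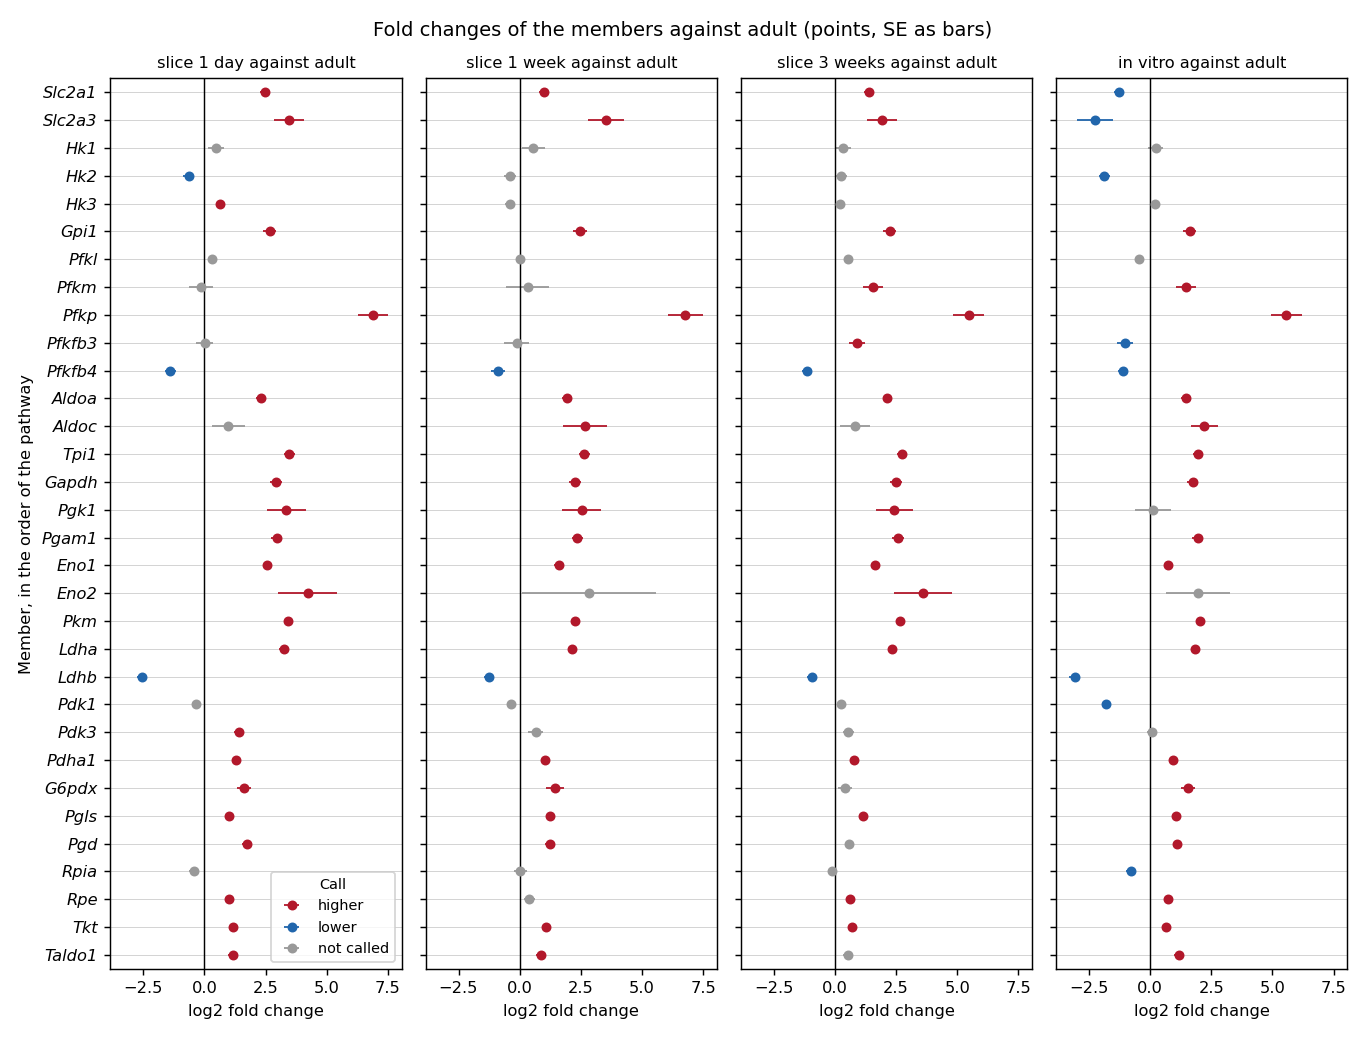
Log2 fold change of each of the 32 genes against adult in slice 1 day, slice 1 week, slice 3 weeks and *in vitro*, with horizontal bars for the SE of the edgeR fit and points in red for genes called higher, blue for lower and grey for not called. *Pkm* sat at 3.43 in slice 1 day and 2.04 *in vitro*, *Ldhb* was below 0 in all 4 comparisons, and *Slc2a1* and *Slc2a3* were above 0 in slices and below 0 *in vitro*.

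At the pyruvate branch the forms of lactate dehydrogenase exchanged places. *Ldha*, the M subunit found in tissues that make lactate, had 203 and 184 CPM in adult, 1757 and 1883 in slice 1 day, 976 and 747 in slice 1 week, 1006 and 961 in slice 3 weeks, and 617 and 754 *in vitro*. *Ldhb*, the H subunit found in tissues that use lactate, had 772 and 846 CPM in adult, 166 and 110.0 in slice 1 day, 305 and 379 in slice 1 week, 439 and 397 in slice 3 weeks, and 103 and 87.7 *in vitro*. *Ldhb* exceeded *Ldha* in both adult libraries and *Ldha* exceeded *Ldhb* in all 8 cultured ones. Of the UMIs of both genes, *Ldha* held 20.8% and 17.8% in adult, 91.4% and 94.5% in slice 1 day, 76.2% and 66.4% in slice 1 week, 69.6% and 70.7% in slice 3 weeks, and 85.7% and 89.6% *in vitro*. Against adult, *Ldha* rose by 3.23 ± 0.18 in slice 1 day (edgeR adjusted p = 1e-06), 2.16 ± 0.18 in slice 1 week (edgeR adjusted p = 2.2e-05), 2.34 ± 0.18 in slice 3 weeks (edgeR adjusted p = 8.4e-06) and 1.82 ± 0.17 *in vitro* (edgeR adjusted p = 1.1e-05). *Ldhb* changed by −2.55 ± 0.21 (edgeR adjusted p = 7.6e-06), −1.25 ± 0.21 (edgeR adjusted p = 0.0015), −0.95 ± 0.20 (edgeR adjusted p = 0.0041) and −3.09 ± 0.22 (edgeR adjusted p = 1.4e-06) in the same order. Both genes kept their direction and their calls against adult under all alternative settings, all of which scaled the libraries. Per cell, *Ldhb* was not below adult in slice 1 week and slice 3 weeks, where it overlapped with adult.

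**Figure D4:**
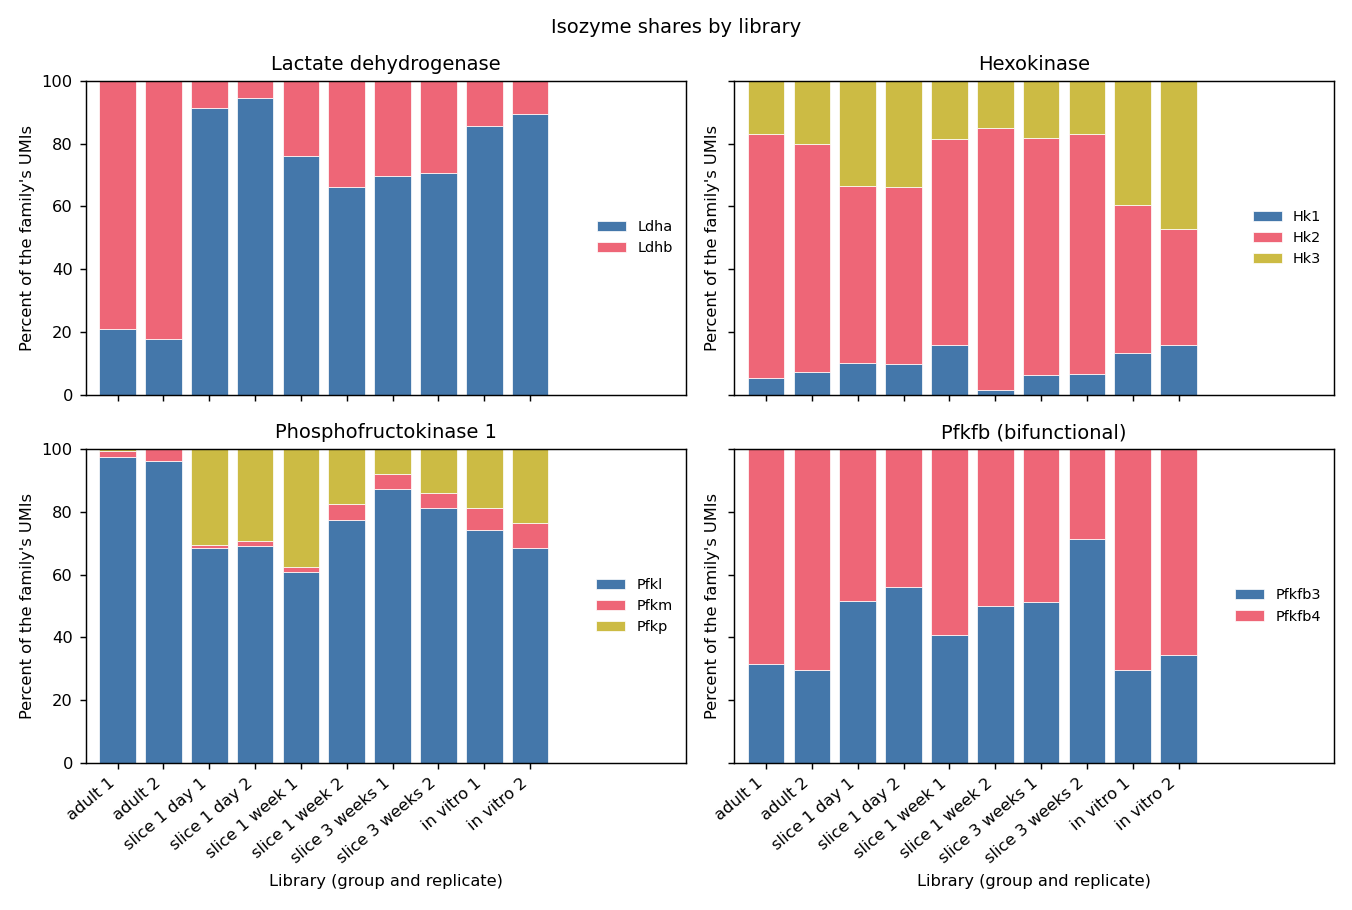
Stacked bars of the percentage of a family's UMIs held by each form in each library, for lactate dehydrogenase, hexokinase, phosphofructokinase and the bifunctional Pfkfb enzymes. *Ldha* went from 20.8% and 17.8% in adult to between 66.4% and 94.5% in culture, and *Pfkp* from at most 0.8% to between 7.8% and 37.7%.

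The other genes of pyruvate handling changed less. *Pdha1*, a subunit of pyruvate dehydrogenase, rose from 21.8 and 27.4 CPM in adult to between 41.5 and 60.7 in the 8 cultured libraries, with log2 fold changes from 0.79 ± 0.14 in slice 3 weeks (edgeR adjusted p = 0.0016) to 1.05 ± 0.18 in slice 1 week, and a larger one in slice 1 day (edgeR adjusted p = 4.6e-05). *Pdk1*, a kinase that switches pyruvate dehydrogenase off, had 83.0 and 96.5 CPM in adult, 68.0 to 119 in slices and 24.5 and 27.2 *in vitro*. *Pdk1* was called in none of the slice groups and lay below every other library *in vitro*, at −1.79 ± 0.15 (edgeR adjusted p = 4.6e-06). Per cell, however, *Pdk1* had 0.316 and 0.362 UMIs *in vitro* against 0.298 and 0.212 in adult. *Pdk3*, a related kinase, had 14.0 and 18.5 CPM in adult and 37.2 and 47.9 in slice 1 day, a change of 1.41 ± 0.22 (edgeR adjusted p = 0.0004).

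The promoters of these genes are shown because HIF-1 and E-box factors are textbook regulators of glycolytic genes and 12 of the 32 genes were higher in all 4 comparisons with adult. The 250 bases before each annotated start were read from the RefSeq table of the GRCm38.p6 build (mm10), and 31 of the 32 genes matched, *Slc2a3* being the one without an entry. The letters searched were ACGTG and GCGTG on both strands, the core of the hypoxia response element, where CACGTG holds ACGTG on both strands, counts as 2 matches and is also an E-box. A match was present in 35 of 45 promoters of the genes (77.8%), in 38.6% of all 32851 promoters, and in 47.7% of the 14814 promoters with a GC content within the central range of the members, 50.2% to 67.6%. At least 2 matches were present in 33.3% of the members' promoters, in 16.7% of all promoters and in 21.5% of those with like GC content. Some windows of a gene overlapped, as for *Aldoa*, *Eno1* and *Pfkm*, so that the same match was counted in more than 1 promoter. The sequences below run 5′ to 3′ on the strand of the gene and end at the base before the start, with matches in capitals. *Ldha*, *Gapdh* and *Pgam1* were picked after matches were seen from the 12 genes called higher in all 4 comparisons with adult, and *Ldhb* was added as the form of lactate dehydrogenase that fell. *Gpi1* and *Tpi1*, which were also higher in all 4 comparisons, had no match in these windows.
Ldha: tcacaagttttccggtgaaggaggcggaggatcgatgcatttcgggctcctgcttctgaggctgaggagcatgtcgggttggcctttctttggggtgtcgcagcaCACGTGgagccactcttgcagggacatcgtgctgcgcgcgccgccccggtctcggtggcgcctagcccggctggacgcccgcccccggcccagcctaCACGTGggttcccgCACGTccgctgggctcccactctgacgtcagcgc
Gapdh: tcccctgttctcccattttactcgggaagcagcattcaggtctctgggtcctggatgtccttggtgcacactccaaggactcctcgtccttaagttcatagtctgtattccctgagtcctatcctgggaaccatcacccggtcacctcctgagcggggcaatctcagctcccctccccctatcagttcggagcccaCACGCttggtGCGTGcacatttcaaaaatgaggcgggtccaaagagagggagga
Pgam1: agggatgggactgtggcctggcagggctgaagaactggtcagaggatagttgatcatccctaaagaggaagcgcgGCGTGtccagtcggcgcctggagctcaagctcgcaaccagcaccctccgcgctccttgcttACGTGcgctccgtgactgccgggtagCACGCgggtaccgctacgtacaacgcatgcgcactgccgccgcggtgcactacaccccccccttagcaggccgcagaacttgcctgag
Ldhb: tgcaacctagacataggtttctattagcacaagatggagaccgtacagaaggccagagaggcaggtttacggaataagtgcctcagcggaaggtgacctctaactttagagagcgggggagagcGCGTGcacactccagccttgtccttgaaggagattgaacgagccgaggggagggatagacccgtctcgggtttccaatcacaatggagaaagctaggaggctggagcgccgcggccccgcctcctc
The window before the first *Ldha* start lay at chr7:46845554-46845803 on the plus strand, within a gene annotated from 46841475 to 46855627, and held 5 matches, 4 of them from 2 copies of CACGTG. A second *Ldha* window, at chr7:46846832-46847081 and not shown, held 1 match. *Gapdh* (chr6:125165774-125166023, minus strand) held 2 matches, at 54 and 44 bases before the start, and *Pgam1* (chr19:41911621-41911870, plus strand) held 3. The *Gapdh* window too lay within its annotated gene, from 125161715 to 125166467. *Ldhb* (chr6:142507958-142508207, minus strand) held 1, at 126 bases before the start, so that a match was found before a gene that fell as well as before genes that rose. A match is a stretch of letters and was not tested as a binding site.

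The oxidative branch of the pentose phosphate pathway, which makes NADPH, was called higher in all 3 genes in slice 1 day, slice 1 week and *in vitro*, and in 1 of 3 in slice 3 weeks, beside 24.9%, 15%, 22.4% and 18% of all genes tested. *G6pdx*, glucose-6-phosphate dehydrogenase and the entry of the branch, had 19.8 and 14.7 CPM in adult, 38.3 and 65.9 in slice 1 day, 52.4 and 38.4 in slice 1 week, 29.0 and 18.0 in slice 3 weeks, and 53.5 and 47.9 *in vitro*. It was called higher in slice 1 day (1.61 ± 0.29, edgeR adjusted p = 0.00093), slice 1 week (1.45 ± 0.36, edgeR adjusted p = 0.013) and *in vitro* (1.54 ± 0.28, edgeR adjusted p = 0.00092), and its slice 3 weeks libraries overlapped with adult, at 0.41 (edgeR adjusted p = 0.28). The *G6pdx* call in slice 1 week was lost without slice 1 week replicate 1, at 1.17 (edgeR adjusted p = 0.29), or adult replicate 2, at 1.25 (edgeR adjusted p = 0.059). *Pgls*, the lactonase of the second step, had 119 and 109 CPM in adult and 222 to 297 in culture, and its log2 fold changes lay between 1.01 and 1.24 in all 4 comparisons, each with an SE of 0.16. *Pgd*, 6-phosphogluconate dehydrogenase, had 72.7 and 68.1 CPM in adult, 230.1 and 235 in slice 1 day, 179.8 and 146 in slice 1 week, 126 and 85.4 in slice 3 weeks, and 153 and 151 *in vitro*. *Pgd* rose by 1.72 ± 0.19 in slice 1 day (edgeR adjusted p = 4e-05), and its change of 0.58 in slice 3 weeks (edgeR adjusted p = 0.028) stayed under the fold required for a call.

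The non-oxidative branch, which exchanges sugars between the pathway and glycolysis, had 3 of its 4 genes called higher in slice 1 day and *in vitro* and 2 in slice 1 week and slice 3 weeks, beside 24.9%, 22.4%, 15% and 18% of all genes tested. *Tkt*, transketolase, had 116 and 112 CPM in adult, 243 and 273 in slice 1 day, 257 and 223 in slice 1 week, 217 and 156 in slice 3 weeks, and 184 and 177 *in vitro*. *Taldo1*, transaldolase, had 237 and 238 CPM in adult, 549 and 513 in slice 1 day, 518 and 335 in slice 1 week, 349 and 331 in slice 3 weeks, and 557 and 512 *in vitro*. Both were above adult in every cultured library, and *Taldo1* was as high *in vitro* as in slice 1 day, with log2 fold changes of 1.17 ± 0.19 (edgeR adjusted p = 0.00038) and 1.16 ± 0.19. *Taldo1* was not called in slice 3 weeks, at 0.52. The *Taldo1* call in slice 1 week, 0.86, was 0.53 without slice 1 week replicate 1 (edgeR adjusted p = 0.081), and the *Tkt* call in slice 3 weeks, 0.71, was 0.68 without adult replicate 2 (edgeR adjusted p = 0.052) and 0.45 without slice 3 weeks replicate 1. *Rpe*, the ribulose-phosphate epimerase, went from 16.5 and 14.0 CPM in adult to 29.1 and 32.9 in slice 1 day, a change of 1.02 ± 0.16. *Rpe* was also called *in vitro* (0.74 ± 0.15, edgeR adjusted p = 0.002) and in slice 3 weeks (0.62 ± 0.16, edgeR adjusted p = 0.0094), both lost with library size alone or thinned cells and the latter also without adult replicate 2, at 0.52 (edgeR adjusted p = 0.08). *Rpia*, the isomerase that makes ribose-5-phosphate, was 27.0 and 21.0 CPM in adult and 14.8 and 12.9 *in vitro*. Its fall of −0.80 ± 0.18 (edgeR adjusted p = 0.0031) was lost without adult replicate 1, at −0.51, or *in vitro* replicate 2, at −0.58. Per cell, *Rpia* had 0.191 and 0.171 UMIs *in vitro* against 0.0969 and 0.0462 in adult.

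At equal scaling, more of the 32 genes were lower than higher in *in vitro* cells compared with slice microglia. Counted per cell the order against slice 3 weeks was the other way round, with 95.2 ± 10.6 UMIs of the 32 genes *in vitro* and 70.4 ± 3.90 in slice 3 weeks (SD, n = 2), at mean totals of 14424 and 6376 UMIs per cell. Against slice 3 weeks, 15 were lower and 3 higher *in vitro*, beside 20% and 13.3% of all genes tested, and with scaling by library size alone 17 were lower and 1 higher. Against slice 1 day, 18 were lower and 1 higher, beside 18.6% and 13.3%, with medians of −0.63 and −0.93 for the 32 genes and of −0.10 and −0.07 for all genes. *Slc2a1* differed by −2.68 ± 0.20 from slice 3 weeks (edgeR adjusted p = 5.7e-06) and by −3.77 ± 0.20 from slice 1 day (edgeR adjusted p = 2e-06). Against slice 3 weeks, *Hk2* differed by −2.13 ± 0.24 (edgeR adjusted p = 9.2e-05), *Pdk1* by −2.06 ± 0.15 (edgeR adjusted p = 5.9e-06) and *Ldhb* by −2.13 ± 0.21 (edgeR adjusted p = 3.8e-05). *Pgk1* differed from slice 3 weeks by −2.31 ± 0.74 (edgeR adjusted p = 0.032), a call lost without either *in vitro* library, either slice 1 week library or slice 3 weeks replicate 1, where it was −1.16 (edgeR adjusted p = 0.23). Smaller differences were those of *Gapdh* at −0.76 ± 0.22 (edgeR adjusted p = 0.021), *Pkm* at −0.64 ± 0.17 (edgeR adjusted p = 0.015) and *Aldoa* at −0.67 ± 0.19 (edgeR adjusted p = 0.019), and *Ldha* at −0.52 ± 0.17 did not reach the fold for a call. Higher *in vitro* than in slice 3 weeks were *G6pdx* (1.13 ± 0.28, edgeR adjusted p = 0.0091), *Taldo1* (0.65 ± 0.19, edgeR adjusted p = 0.018) and the scarce *Aldoc* (1.41 ± 0.50, edgeR adjusted p = 0.047), of which *Taldo1* and *Aldoc* were not called with library size alone. The *Taldo1* call was also lost without *in vitro* replicate 1, and that of *Aldoc* under 13 of 24 alternatives, among them DESeq2, the replicate block and leaving out any 1 library outside adult other than slice 3 weeks replicate 2. *Pfkm* was the one gene higher than in slice 1 day, at 1.63 ± 0.43 (edgeR adjusted p = 0.014), a call lost without slice 1 day replicate 1, at 1.36 (edgeR adjusted p = 0.075), or *in vitro* replicate 2 (edgeR adjusted p = 0.063). Without *in vitro* replicate 1, 8 of the 15 genes below slice 3 weeks and 11 of the 18 below slice 1 day still passed, and the *Gapdh*, *Pkm* and *Aldoa* differences from slice 3 weeks were −0.51, −0.45 and −0.47 and no longer called.

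Between slice 1 day and slice 3 weeks, 10 of the 32 genes were lower at the later time and 4 higher, beside 12.8% and 13.9% of all genes tested. From 1 day to 3 weeks *Ldha* changed by −0.89 ± 0.17 (edgeR adjusted p = 0.0037), *Eno1* by −0.92 ± 0.18 (edgeR adjusted p = 0.0044), *Slc2a1* by −1.09 ± 0.19 (edgeR adjusted p = 0.0021) and *Pgd* by −1.14 ± 0.18 (edgeR adjusted p = 0.0016). *Ldhb* rose by 1.60 ± 0.21 (edgeR adjusted p = 0.00055), *Hk2* by 0.90 ± 0.23 (edgeR adjusted p = 0.016) and *Pdk1* by 0.62 ± 0.15 (edgeR adjusted p = 0.011). The *Hk2* and *Pdk1* calls were lost without slice 1 day replicate 2 or slice 3 weeks replicate 2, with *Hk2* at 0.86 and 0.78 and *Pdk1* at 0.57 and 0.47, and without slice 1 day replicate 2 the counts were 4 lower and 1 higher. *Gapdh*, *Aldoa* and *Gpi1* did not pass the test, with changes of −0.42, −0.17 and −0.43. *Ldha* and *Ldhb* thus stood nearer to adult at 3 weeks than at 1 day, while *Ldha* still exceeded adult by 2.34.

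Labels divide the libraries into TST11200, which held adult replicate 1 and slice 3 weeks replicate 1, and TST11247, which held the other 8. Within each label, the summed part of the 32 genes was 2.53 and 2.68 times as high in slice 3 weeks as in adult. All 21 genes called in slice 3 weeks against adult had the same sign within both labels. These genes were called from the same libraries, which made agreement in sign likely beforehand, so it is no separate support. *Ldha* differed by 2.30 and 2.38 and *Ldhb* by −0.81 and −1.09 within the labels, whereas *Slc2a3* differed by 0.17 and 2.50.

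Cells with neutrophil transcripts were found in slice 1 day and slice 1 week. Those with more than 1% of UMIs from neutrophil markers were 71 (13.7%) and 117 (11.5%) of the cells in slice 1 day, 25 (16.9%) and 1 (1.64%) in slice 1 week, and there were none in the other libraries. The 32 genes took 1.58% and 1.76% of UMIs in these cells of slice 1 day and 1.66% and 1.65% in the other cells, and 1.21% against 1.08% in slice 1 week replicate 1. With such cells left out, 22 genes were higher and 4 lower in slice 1 day, and 18 higher and 2 lower in slice 1 week. Of all genes tested, 3003 were then higher in slice 1 day and 1640 in slice 1 week, against 3023 and 1822 with these cells. Cells with transcripts of the cell cycle made up 0.34% and 0.28% of adult and between 8.1% and 33.7% of each cultured library. Leaving cycling cells out kept 138 of the 144 calls among the 32 genes over all 7 comparisons.

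Within a library the part taken by the 32 genes varied from cell to cell. Each cell was thinned to 1800 UMIs so that depth was equal, which left out 413 and 1618 shallower cells in adult, 26 and 0 in slice 1 day, 9 in each slice 1 week library, 23 and 51 in slice 3 weeks and 0 *in vitro*. The median cell had 0.389% and 0.444% of its UMIs from the 32 genes in adult, 1.28% and 1.33% in slice 1 day, 0.778% and 0.611% in slice 1 week, 0.944% and 0.889% in slice 3 weeks and 0.556% in both *in vitro* libraries. Without thinning, the medians were 0.405% and 0.399%, 1.21% and 1.28%, 0.703% and 0.607%, 0.933% and 0.878%, and 0.545% and 0.558%. The 90th percentile was 0.667% in both adult libraries, 3.39% and 3.5% in slice 1 day, 3.40% and 2.27% in slice 1 week, 1.83% and 2.22% in slice 3 weeks, and 0.944% and 1.11% *in vitro*. In slice 1 day, cells of the cell cycle had the lower medians, 1.06% against 1.39% and 1.17% against 1.5%, and *in vitro* the higher ones, 0.611% against 0.556% and 0.778% against 0.5%. The slice 3 weeks libraries differed in direction, with 1.06% in cells of the cell cycle against 0.889% in replicate 1 and 0.833% against 0.889% in replicate 2.

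The cells with the largest part of their transcripts from the 32 genes also had more transcripts of 16 HIF targets outside glycolysis. In the 10% of thinned cells with the largest part, taken after cells over 1% neutrophil UMIs were left out, these targets summed to 8687 and 8685 CPM in slice 1 day and to 2752 and 2572 CPM in the remaining cells. The corresponding values were 4730 against 1479 and 8144 against 2268 CPM in slice 3 weeks, 1281 against 813 and 1495 against 859.6 *in vitro*, and 919 against 769 and 954 against 792 in adult. The ratio was thus between 3.16 and 3.59 in slice 1 day and slice 3 weeks, 1.58 and 1.74 *in vitro*, and 1.19 and 1.20 in adult, while the slice 1 week ratios of 5.74 and 9.58 rested on 12 and 5 top cells. Without *Mif*, left out after its values were seen, the ratio over the other 15 targets was 3.22 to 4.25 in slice 1 day and slice 3 weeks, 1.06 and 1.19 *in vitro* and 1.11 and 1.14 in adult. The *in vitro* ratio was then below both adult ones in replicate 1 and above both in replicate 2. *Bnip3*, a mitophagy receptor induced in low oxygen, had 1540.4 against 262 and 1340 against 242 CPM in slice 1 day and 39.0 against 30.1 and 49.8 against 34.5 CPM *in vitro*. The microglia markers in slice 3 weeks replicate 2 were lower in the top cells, 6832 against 18430 CPM, and less so in replicate 1, 18417 against 21090 CPM. They were lower in the top cells of the other cultured libraries too, with ratios of 0.59 and 0.75 in slice 1 day, 0.56 and 0.57 in slice 1 week and 0.73 and 0.57 *in vitro*, against 0.97 and 0.98 in adult. Cycling genes were 2.57 and 3.33 times as high in the top cells *in vitro* and 0.25 to 0.97 times in those of the slices, and the part of these shifts in the HIF target values was not tested. Across cells, Spearman's rho between the part taken by the 32 genes and the HIF targets was 0.76 and 0.70 in slice 1 day, 0.71 and 0.41 in slice 1 week, 0.51 and 0.71 in slice 3 weeks, 0.19 and 0.21 *in vitro*, and 0.08 and 0.13 in adult. These are descriptions over cells that share a library and a fixed depth, and no test was made.

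**Figure D5:**
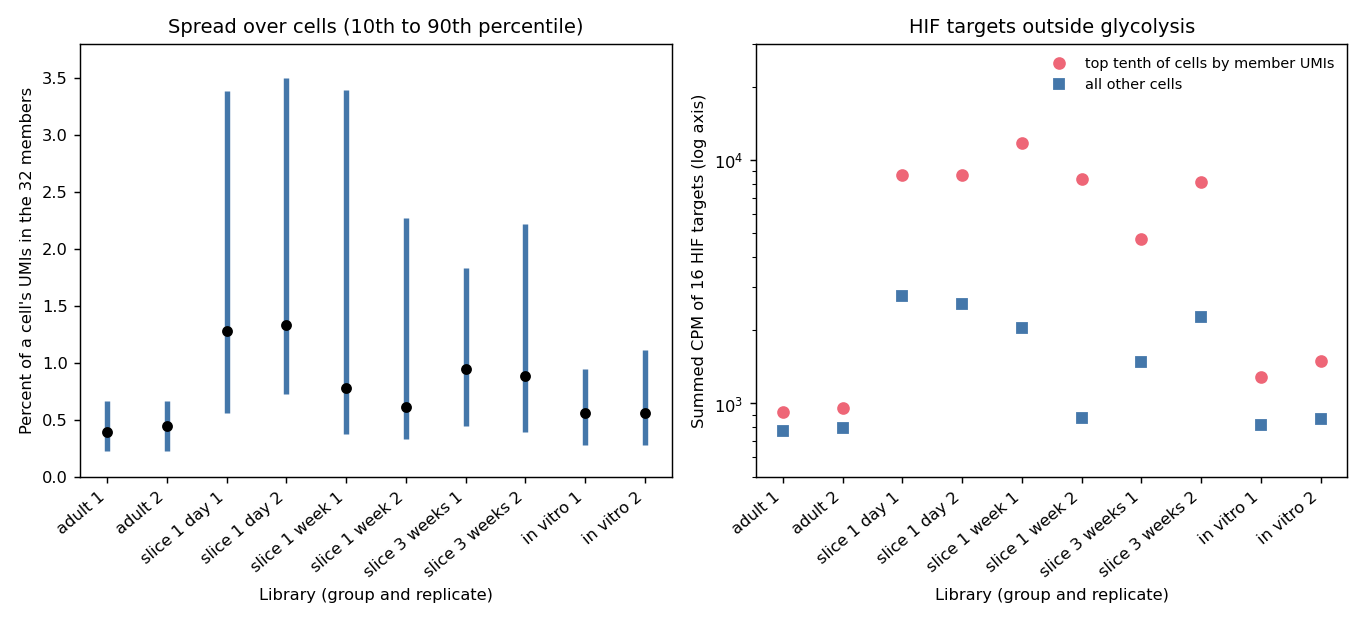
Percentage of 1800 thinned UMIs taken by the 32 genes in the cells of each library, as bars from the 10th to the 90th percentile with the median as a point (left), and the summed CPM of 16 HIF targets on a log axis in the 10% of cells with the largest part and in the other cells (right). The 90th percentile reached 3.39% and 3.5% in slice 1 day against 0.667% in adult, and the HIF targets differed by 3.16 to 3.59 times between the cell classes in slice 1 day and slice 3 weeks.

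The members differed in how far they went together from cell to cell. In the slices, rho of each gene with the sum of the other 31 was 0.55 to 0.74 for *Gapdh*, 0.49 to 0.71 for *Pkm*, 0.49 to 0.72 for *Aldoa*, 0.43 to 0.76 for *Eno1* and 0.25 to 0.75 for *Ldha*. It was 0.01 to 0.06 for *Tkt*, −0.03 to 0.07 for *Taldo1*, −0.14 to 0.09 for *Pgd* and −0.09 to 0.12 for *Hk2*, while *Gpi1*, whose level was near that of *Taldo1*, had 0.29 to 0.50 in slice 1 day and slice 3 weeks and 0.49 and 0.07 in slice 1 week. The glycolytic enzymes named thus went together over slice cells more than these pentose phosphate genes and *Hk2* did. *In vitro*, rho was 0.25 and 0.37 for *Gapdh* and 0.26 and 0.38 for *Pkm*, and in adult it was at most 0.11 for any of the genes, where counts per cell were lowest.

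Genes around the pathway were taken from lists of their known roles, and their counts are to be read beside the shares of all genes called higher and lower against adult, 24.9% and 25.4% in slice 1 day, 15% and 13.6% in slice 1 week, 18% and 17.5% in slice 3 weeks and 22.4% and 28.5% *in vitro*. The 16 HIF targets outside glycolysis were mostly higher in slices, with 11 called higher and 1 lower in slice 1 day, 10 and 1 in slice 1 week, and 12 higher with the other 4 not called in slice 3 weeks, against 6 higher and 4 lower *in vitro*. Their median log2 fold changes were 2.84, 2.59, 2.61 and 0.93 in that order, and 14 of 16 were lower *in vitro* than in slice 3 weeks, where 20% of all genes were. *Mif*, a cytokine gene and HIF target, had 139.7 and 119 CPM in adult, 1593 and 1561 in slice 1 day, 838 and 1240.2 in slice 3 weeks, and 488 and 606 *in vitro*. *Bnip3* had 38.5 and 48.6 CPM in adult, 318 and 288 in slice 1 day, 175 and 369.5 in slice 3 weeks, and 33.9 and 39.3 *in vitro*, where it did not pass the test (−0.25, edgeR adjusted p = 0.6). *Egln3*, a prolyl hydroxylase that is itself a HIF target and marks HIF for degradation, had 1.17 and 0.644 CPM in adult, 141 and 122 in slice 1 day, 62.4 and 126 in slice 3 weeks, and 2.76 and 4.13 *in vitro*. *Hif1a* itself was called higher in slice 3 weeks alone (1.57 ± 0.35, edgeR adjusted p = 0.0049), at 76.5 and 195 CPM against 48.2 and 43.3 in adult, and without slice 3 weeks replicate 2 the change of *Hif1a* was 0.80 (edgeR adjusted p = 0.0071).

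Among 20 tested transcriptional and oxygen-sensing regulators, 4 were called higher and 3 lower in slice 1 day, 3 and 3 in slice 1 week, 5 and 2 in slice 3 weeks, and 5 and 4 *in vitro*, shares close to or below those of all genes except for the 5 higher in slice 3 weeks. *Mlxipl*, which encodes the glucose-sensing factor ChREBP, went from 131 and 142 CPM in adult to 12.6 and 11.5 in slice 1 day, 21.7 and 17.9 in slice 1 week, 83.6 and 55.8 in slice 3 weeks, and 0.899 and 0.477 *in vitro*. *Arrdc4*, a textbook target of the same family of factors, moved the other way, from 7.397 and 8.89 CPM in adult to between 39.6 and 66.6 in culture. Of the 7 monocarboxylate and pyruvate carriers tested, 3 were higher and 2 lower in slice 1 day, 2 were higher in slice 1 week, 4 were higher and 1 lower in slice 3 weeks, and 1 was higher and 3 lower *in vitro*. *Slc16a3*, the lactate exporter MCT4, had 54.5 and 64.1 CPM in adult, 314 and 300.4 in slice 1 day, 161 and 76.8 in slice 1 week, 257 and 241 in slice 3 weeks, and 33.3 and 42.9 *in vitro*. It changed by 2.37 ± 0.26 in slice 1 day (edgeR adjusted p = 3.7e-05). The *in vitro* difference of *Slc16a3*, −0.64 ± 0.25 (edgeR adjusted p = 0.047), was lost under most alternatives, leaving out any 1 adult or *in vitro* library among them, and was −0.35 without *in vitro* replicate 1 (edgeR adjusted p = 0.39). The slice 1 week call of *Slc16a3*, 1.07, was 0.40 without slice 1 week replicate 1 (edgeR adjusted p = 0.38). *Emb*, a partner protein of these carriers, was near 0 in adult and slice 3 weeks, at 0.129 to 1.07 CPM, and reached 66.05 and 57.0 in slice 1 day and 16.3 and 17.0 *in vitro*.

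Other transporters and isoforms of the pathway, 18 of which were tested, gave 5 higher and 2 lower in slice 1 day, 1 and 4 in slice 1 week, 6 and 3 in slice 3 weeks, and 4 and 5 *in vitro*, of which the higher counts in slice 1 day and *in vitro* and the lower counts in slice 3 weeks and *in vitro* were near the shares of all genes called in the same direction. *Slc2a5*, the fructose transporter GLUT5 and a marker of resting microglia, had 689 and 608 CPM in adult and 16.3 and 2.68 in slice 1 day, 48.4 and 48.6 in slice 1 week, 53.8 and 54.3 in slice 3 weeks, and 0.514 and 0.140 *in vitro*. *Slc2a6*, a lysosomal family member of inflammatory macrophages, was higher in all 4 comparisons, at 3.00 and 0.773 CPM in adult and 7.30 to 73.7 in culture. The *Slc2a6* calls were lost *in vitro* without adult replicate 2, at 1.51 (edgeR adjusted p = 0.07), and in slice 1 day without slice 1 day replicate 2, at 2.02 (edgeR adjusted p = 0.069). Of 15 glycogen genes, 4 were higher and 2 lower in slice 1 day, 4 and 1 in slice 1 week, and 4 and 5 *in vitro*, and in slice 3 weeks 5 were higher and 10 not called, and the 4 higher in slice 1 day and *in vitro* and the 5 lower *in vitro* were near the shares of all genes. *Pygl*, the liver-type glycogen phosphorylase, rose from 4.83 and 4.64 CPM in adult to between 17.9 and 83.0 in culture. Of 20 genes of the citric acid cycle, 9 were called higher in slice 1 day and 9 *in vitro*, but 3, near the share of all genes, in each of slice 1 week and slice 3 weeks, with medians of 0.57, 0.55, 0.20 and 0.25, below those of the 32 genes in the same comparisons. Of the 8 tested genes of the pyruvate dehydrogenase complex and its regulators outside the 32, 2 were lower in slice 1 day, 1 in each of slice 1 week and slice 3 weeks and 4 *in vitro*, with the others not called, and the counts in the slices were near the shares of all genes called lower.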

How the data were processed

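Single cells were captured with 10x Genomics 3' v2 chemistry, and per the submitters' processing notes the authors made the UMI counts with Cell Ranger 1.3.0 on mm10. Each deposited table gave, for 1 library, the UMI count of every gene in every barcode, not normalized by the authors. Cells with at most 5% mitochondrial UMIs, at least 400 genes and at most 30000 UMIs were kept and summed by library, with no doublet caller run. Sums were scaled by TMM, filtered with filterByExpr (minimum count 10) and tested with edgeR 4.0.16 (glmQLFit and glmQLFTest, limma 3.58.1, R 4.3.3) in 1 fit of 10 libraries, 2 per group, so that n = 2 in each. Adjustment was by Benjamini-Hochberg over all 12155 genes, and scripts were tested on simulated data. Per-cell values were computed after thinning to 1800 UMIs with Python 3.11.15, numpy 2.4.6, pandas 2.3.3 and scipy 1.17.1, and plots with matplotlib 3.10.9. The members and the lists were chosen with earlier results of these data known. All members were named, and other genes by a fixed rule, if called in the same direction in at least 3 of the 4 comparisons with adult, up to 8 per list by mean level, or if called at all for carriers and regulators. Alternatives covered normalization (RLE, library size alone), DESeq2 1.42.0, filters on genes and cells, thinning, the libraries entering the fit, study label, a replicate block and leaving out each library. Replicate numbers were not shown to pair the samples. Intervals on counts cover counting error only.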

Additional observations from a re-analysis of the deposited data

How the results depend on the processing

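Of 144 calls of members over the 7 comparisons, 88 were kept under every alternative and 56 were lost under at least 1, and none changed direction in any setting run. *Aldoa*, *Gapdh*, *Gpi1*, *Ldha*, *Pgam1*, *Pgls*, *Pkm* and *Tpi1* stayed higher, and *Ldhb* lower, in all 4 comparisons with adult under all of them. The fewest calls, 113, were kept when cells with UMIs of at least 3 marker genes of another cell type were left out, which marked all 148 cells of slice 1 week replicate 1 and 1011 of 1014 of slice 1 day replicate 2, so that both libraries left the fit. Slice 1 day and slice 1 week were then 1 library each, assumed to vary like the other groups. In that fit the median log2 fold change of the members against adult was 1.28 in slice 1 day and 1.08 in slice 1 week. The medians over all genes were −0.07 and −0.21. With cells over 1% neutrophil UMIs left out instead, an alternative chosen after seeing the data, 141 calls were kept.

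The count lower in slice 1 week was 1 with RLE size factors, DESeq2, all barcodes, thinned cells, no cycling cells, the 4 libraries of the comparison alone, TST11247 alone, or study label as covariate. *In vitro* against slice 3 weeks gave 1 higher with library size alone, which moved the median of all genes by −0.10 in that comparison and by between −0.30 and −0.12 in the comparisons with adult. *In vitro* against slice 1 day gave 2 higher with no low count filter, the 4 libraries alone or TST11247 alone, where edgeR called 1, and *Pfkm* was not called with thinned cells or without cells of other types, which left 0. The percentage of UMIs was 0.431% in adult with thinned cells, 1.65%, 1.74%, 1.76% and 1.80% in slice 1 day with all barcodes, thinned cells, no cells of other types and no cycling cells, and 0.585% *in vitro* without cycling cells.

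Leaving out each library in turn gave 17 to 18 higher and 5 to 8 lower *in vitro*, 20 to 23 and 2 to 3 in slice 1 day, 13 to 19 and 1 to 2 in slice 1 week, and 14 to 22 and 2 in slice 3 weeks, all against adult. The ranges were 1 to 3 higher and 8 to 15 lower for *in vitro* against slice 3 weeks, 0 to 2 and 11 to 19 against slice 1 day, and 1 to 5 and 4 to 10 for slice 3 weeks against slice 1 day. The replicate block kept 139 of the 144 calls, with 18 higher and 8 lower *in vitro*, 22 and 3 in slice 1 day, 18 and 2 in slice 1 week and 17 and 2 in slice 3 weeks against adult, and 2 and 14, 1 and 18, and 4 and 10 in the other comparisons in the order above. Correlations of deviations between libraries of the same replicate number lay between −0.11 and 0.09 over 12155 genes, so that the numbers are not shown to pair the samples. The cause of these changes was not tested. Depth was lowest in slice 1 week, at 1080763 and 385373 UMIs, where *Eno2* had 1 UMI over both libraries and *Aldoc* 8.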
